A study of Mus musculus with 28 samples.

Results

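Apol9a (ENSMUSG00000057346) and Apol9b (ENSMUSG00000068246) are near-identical mouse genes of the apolipoprotein L family, and they are described here in macrophages that were grown from mouse bone marrow (BMM). They are 2 of the 15423 genes in the count table of the first experiment and 2 of the 56941 genes in that of the second. Both were chosen by their fold change between Irgm1-KO and WT libraries, as the largest rises in cells lacking Irgm1, an immunity-related GTPase, so their levels in that contrast are a description with no test.

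The first experiment held 3 groups, untreated: WT, Irgm1-KO and Irgm_IFNAR-KO, the last without Irgm1 and without IFNAR, the receptor of type I interferons. The second held 4 groups: WT_control, WT_fenofibrate, Irgm1KO_control and Irgm1KO_fenofibrate, where fenofibrate, an agonist of PPAR alpha used to lower blood lipids, was given at 50 µM. Each group had 4 libraries, 28 in all, from mice of C57BL/6 background (mutants by backcross), aged 2 to 4 months and of both sexes. All cells were grown for 6 days in medium with 20% L929 cell-conditioned medium and then kept 24 h without it. No group lacked IFNAR alone, so the effect of removing the receptor was measured only in cells that also lacked Irgm1. The labels give neither the length of the fenofibrate exposure nor what the control cells received. They also do not say whether libraries of a group came from separate animals. A p-value here therefore measures only the spread among libraries, which may be in part technical.

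Type I interferons bind IFNAR, whose kinases Jak1 and Tyk2 lead to a complex with Stat2 and Irf9 that enters the nucleus and binds short elements in the promoters of interferon-stimulated genes. Macrophages both make and answer interferon beta, so low-level signalling can run in untreated cultures. Apolipoprotein L proteins are related to lipid-binding and membrane-active proteins, and mouse Apol9a and Apol9b are known as interferon-induced members of the family.

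The promoter sequence of the pair is shown first because the windows of the 2 genes, at separate places on the chromosome, are identical where they overlap. Sequences are from RefSeq (GRCm38.p6), matched by symbol, and both genes matched. The 250 bases before the RefSeq start of Apol9a lie at chr15:77411081-77411330 on the minus strand, and those of Apol9b at chr15:77728822-77729071 on the plus strand. Capitals mark 2 overlapping matches to the 10-base pattern TTTCNNTTTC (GAAANNGAAA on the other strand, both strands searched), which is the core of the element bound by that complex of Stat2 and Irf9.
Apol9a: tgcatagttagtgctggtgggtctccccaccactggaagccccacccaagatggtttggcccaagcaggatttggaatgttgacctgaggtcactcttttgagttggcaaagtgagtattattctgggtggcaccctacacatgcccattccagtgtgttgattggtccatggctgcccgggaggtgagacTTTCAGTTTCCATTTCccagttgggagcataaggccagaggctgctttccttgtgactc

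The windows of the 2 genes, 250 bases before to 50 bases after each start, overlapped over 278 bases when aligned, and 0 of these bases differed. The RefSeq window of Apol9b begins 22 bases further upstream, so the first match begins at base -59 from the start of Apol9a and at base -37 from that of Apol9b. The 50 bases around the matches are printed beside those of Apol10b and Apol7c, the other family members near the pair that were expressed in these cells. They lie at chr15:77411110-77411159 (Apol9a, minus strand), chr15:77729015-77729064 (Apol9b, plus strand), chr15:77596100-77596149 (Apol10b, minus strand) and chr15:77533341-77533390 (Apol7c, minus strand).
Apol9a: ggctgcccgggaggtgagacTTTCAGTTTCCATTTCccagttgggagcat
Apol9b: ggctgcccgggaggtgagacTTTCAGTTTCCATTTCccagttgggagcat
Apol10b: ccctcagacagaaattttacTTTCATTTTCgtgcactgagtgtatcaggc
Apol7c: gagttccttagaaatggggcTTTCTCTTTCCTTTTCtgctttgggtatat

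Apol7c also held 2 overlapping matches, and the 1 match of Apol10b lay across its start. The pattern was found in 3.44% of the 32851 promoter windows of this length in the RefSeq table. Counted per gene, with a match in any of its windows, it was found in 3.99% of 27025 genes. It was found in 8 of the 12 apolipoprotein L genes with a window, the pair included, and in 22 of the 45 genes with a window (48.9%) on a list of type I interferon-stimulated genes that leaves out the pair. A match describes the letters in the window and is not a measured binding site.

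The near identity extends to the transcripts, and it limits how far the counts of the 2 genes can be told apart. Their longest coding transcripts are 1530 bases (Apol9a) and 1573 bases (Apol9b) long in GENCODE release M21, with 3 exons each, of which 2 are coding, and the coding sequences are 930 bases each without the stop codon. Over 1475 aligned transcript bases, 23 differed (98.4% identity), and 14 of the 930 coding bases differed. Of all 50-base stretches, 42.5% in Apol9a and 48.6% in Apol9b occur in no other gene. For 100-base stretches these shares were 58.9% and 65.1%, and 0 of the remaining stretches were shared with a gene outside the pair. Sequencing ran for 100 cycles in the first experiment and 50 in the second. The sources used here do not say how reads that match both genes were counted, so the split between the 2 genes is uncertain and the sum of the pair is given beside it.

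Libraries held 48.7 to 70.5 M counts (M, mega) in experiment 1 and 82.4 to 120.8 M in experiment 2. Levels below are counts per M counts of the TMM-scaled library size (CPM), and the 2 tables were scaled separately, so levels are ordered only within an experiment. Macrophage markers such as Csf1r, Adgre1 and Cd68 were above 5 CPM in all groups (10 of 10 listed). The targeted gene Irgm1 was at 760 ± 92.0 CPM in Irgm1-KO and 716 ± 73.5 in Irgm_IFNAR-KO against 1293 ± 74.4 in WT (SD, n = 4), and every mutant library was below every WT library. Ifnar1 was at 136 ± 5.54 CPM in WT, 121 ± 6.64 in Irgm1-KO and 96.0 ± 28.8 in Irgm_IFNAR-KO, where replicate 3 stood at 53.1. The sources used here do not name the deleted exons, and the counts are per whole gene, so they do not show whether the receptor gene was disrupted.

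Apol9a and Apol9b were barely expressed in WT macrophages, abundant in Irgm1-KO macrophages and nearly undetected once IFNAR was also missing. In WT, Apol9a was at 0.142, 0.217, 0.161 and 0.160 CPM in replicates 1 to 4, from 7, 10, 9 and 11 counts. In Irgm1-KO it was at 19.3, 22.7, 27.7 and 20.5 CPM, from 908, 1350, 1635 and 1231 counts. In Irgm_IFNAR-KO it had 0 counts in each of the 4 libraries. The 3 groups did not overlap, and the lowest Irgm1-KO library lay far above the highest WT library. Apol9a was chosen for its rise from WT to Irgm1-KO, so the gap between those groups follows from the choice. The share of all genes whose groups did not overlap is not given here. An absence of overlap is therefore only a description, here and below.

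Apol9b followed the same order at a higher level. It was at 1.04, 1.19, 1.47 and 1.13 CPM in WT, from 51, 55, 82 and 78 counts. In Irgm1-KO it was at 64.2, 60.4, 87.8 and 57.1 CPM, from 3025, 3589, 5191 and 3434 counts. In Irgm_IFNAR-KO it had 0, 1, 2 and 0 counts. Again the groups did not overlap, and replicate 3 was the highest Irgm1-KO library for both genes.

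**Figure D1:**
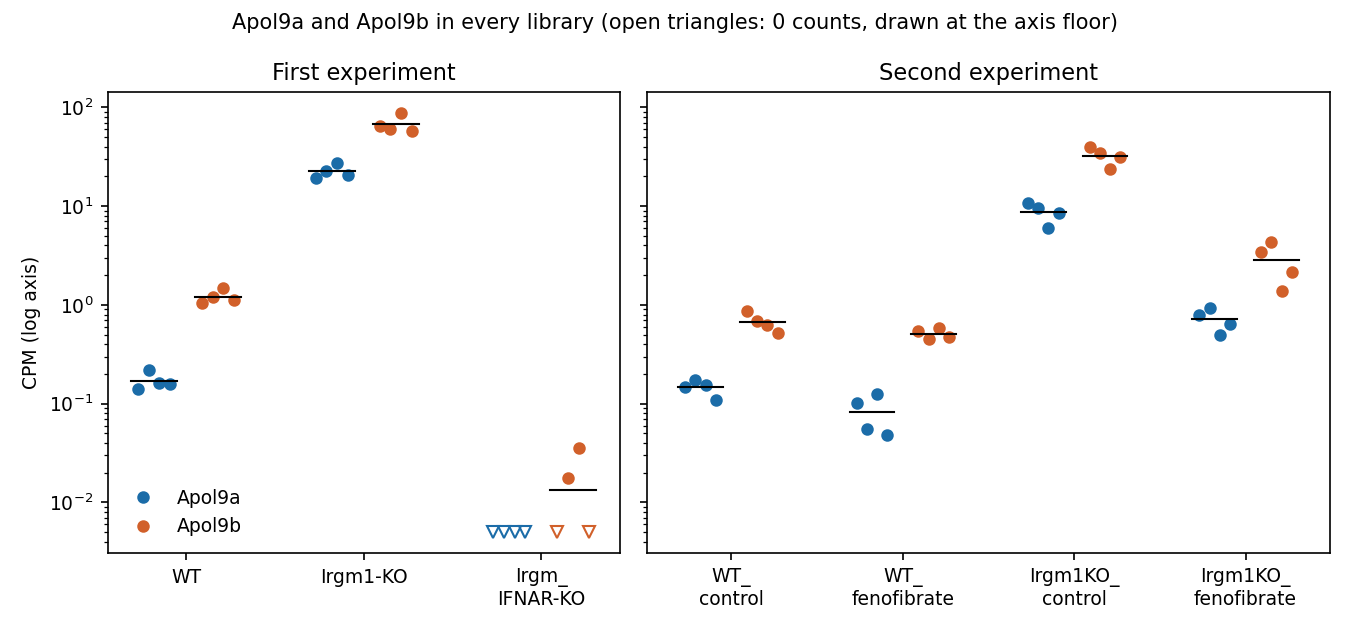
CPM of Apol9a (blue) and Apol9b (orange) in every library on a log axis, by group, for the first (left) and second (right) experiment; dots are libraries, black lines are group means and open triangles are libraries with 0 counts. The Irgm1-KO libraries sit between 19.3 and 27.7 CPM for Apol9a and between 57.1 and 87.8 CPM for Apol9b, and all 4 Irgm_IFNAR-KO libraries had 0 counts of Apol9a.

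The rise from WT to Irgm1-KO is what the genes were chosen for. Mean Apol9a went from 0.170 ± 0.0325 to 22.5 ± 3.71 CPM (SD, n = 4), a ratio of 132 and a fitted log2 fold change of 7.04 (SE 0.19). Mean Apol9b went from 1.21 ± 0.185 to 67.4 ± 13.9 CPM, a ratio of 55.7 and a log2 fold change of 5.80 (SE 0.21). For background, 19.8% of the 13998 genes tested were called higher and 20.7% lower in that contrast (edgeR's quasi-likelihood test, threshold 0.05 on the adjusted p). The sum of the pair went from 1.38 ± 0.193 to 89.9 ± 17.3 CPM. Irgm1-KO replicate 3 stood apart in that sum at 115.5 CPM, and without it the log2 fold changes were 6.93 for Apol9a and 5.64 for Apol9b.

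Ranked by fold among 9136 named genes that reached 5 CPM in some group, Apol9a came 1st and Apol9b 3rd. Both were chosen by this fold and reached 5 CPM only in Irgm1-KO, so these ranks follow from the choice. Hspa1b, an inducible heat-shock chaperone gene with a near-identical copy of its own, stood between them at a log2 fold change of 6.14. Just below Apol9b came Timd4, a receptor for apoptotic cells (5.66), and Hspa1a (5.61). This ranking left out genes below that level, predicted genes, Xist and Y-linked genes. Over all genes tested, the largest log2 fold change was 8.59.

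Loss of IFNAR in Irgm1-deficient cells took both genes below their WT level. Both were called lower in Irgm_IFNAR-KO than in Irgm1-KO by edgeR's quasi-likelihood test (adjusted p = 3.7e-09 for Apol9a and 1.7e-10 for Apol9b), where 21.3% of tested genes were called lower. The Irgm1-KO libraries of this comparison were also those that chose the genes, so their p-values are not independent of the choice, with or without replicate 3 (without it, adjusted p = 3.4e-09 and 2.0e-10). Against a floor of 3 counts over the group, Apol9a was at least 1746-fold lower in Irgm_IFNAR-KO than in Irgm1-KO. For Apol9b, with 3 counts in all, Irgm1-KO was 5194-fold higher (95% interval 1777 to 25187, exact, for counting error only). For the sum of the pair this ratio was 6940 (2374 to 33655). Of the 3 counts, 2 lay in Irgm_IFNAR-KO replicate 3, and without that library the ratio for Apol9b was 11816, from 1 count.

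The comparison of Irgm_IFNAR-KO with WT shares the WT libraries with the contrast that chose the genes. Both genes were called lower in Irgm_IFNAR-KO (adjusted p = 2.7e-04 for Apol9a and 1.7e-06 for Apol9b, edgeR's quasi-likelihood test), where 8.22% of tested genes were called lower. WT libraries held 37 Apol9a counts in all and Irgm_IFNAR-KO libraries 0, which made WT at least 12.95-fold higher against the same floor. Apol9b held 266 counts in WT and 3 in Irgm_IFNAR-KO, a ratio of 93.1 (95% interval 31.5 to 454, exact), and of 212 without Irgm_IFNAR-KO replicate 3 (37.7 to 8398). The 0 counts of Apol9a allow a mean level of up to 0.0130 CPM in Irgm_IFNAR-KO. In bulk libraries, fewer cells that express a gene and less RNA per cell cannot be told apart.

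Libraries of the second experiment showed the same order of the untreated genotypes. Apol9a was at 0.146, 0.175, 0.154 and 0.110 CPM in WT_control, from 14, 15, 14 and 13 counts. In Irgm1KO_control it was at 10.8, 9.51, 6.02 and 8.57 CPM, from 1313, 964, 554 and 690 counts. The groups did not overlap, and replicate 3 was the lowest of the Irgm1KO_control libraries.

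Apol9b was at 0.877, 0.690, 0.627 and 0.523 CPM in WT_control. In Irgm1KO_control it was at 39.9, 34.7, 23.8 and 31.5 CPM. The ratio of group means was 59.6 for Apol9a (log2 fold change 5.91, SE 0.26) and 47.8 for Apol9b (5.58, SE 0.32). Under the same filter at 5 CPM, both again held ranks 1 and 3 of 9295 named genes. Hspa1b (5.72) came between them and Hspa1a (5.18) and Oasl1 (4.26) below. Genes left out by the filter included Ifnb1, the interferon beta gene (5.40), and Slfn4, a Schlafen family gene (5.18), both above Oasl1. Over all genes tested, the largest log2 fold change was 8.27. Since the wording of the choice does not say which experiment was used, these values too are a description, beside 27.3% of the 15429 tested genes called higher and 26.1% called lower.

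Fenofibrate lowered both genes in Irgm1KO macrophages, to 8.22% and 8.69% of their mean control level, while they stayed above every WT_control and WT_fenofibrate library. Apol9a was at 0.799, 0.939, 0.493 and 0.636 CPM in Irgm1KO_fenofibrate, from 64, 90, 48 and 56 counts. Apol9b was at 3.46, 4.32, 1.38 and 2.14 CPM, from 277, 414, 134 and 188 counts. No fenofibrate library overlapped the control libraries of this genotype, and replicate 3 was the lowest of each group.

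Mean Apol9a fell from 8.72 ± 2.02 to 0.717 ± 0.194 CPM, 8.22% of control (log2 fold change -3.61, SE 0.22, adjusted p = 6.0e-09, edgeR's quasi-likelihood test). Mean Apol9b fell from 32.5 ± 6.74 to 2.82 ± 1.32 CPM, 8.69% of control (-3.53, SE 0.28, adjusted p = 1.3e-07). In this comparison 22.2% of tested genes were called lower. The high Irgm1KO_control libraries may have helped choose the genes, so these p-values may not be independent of the choice. Control and fenofibrate libraries with the same number were paired, by a check of their replicate numbers. Within the 4 pairs, fenofibrate left 7.41%, 9.87%, 8.19% and 7.42% of Apol9a and 8.67%, 12.5%, 5.79% and 6.77% of Apol9b. All pairs moved down for both genes, over a narrower range for Apol9a than for Apol9b.

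In WT macrophages neither gene passed the main test with fenofibrate, a test that did not use the pairing of libraries. Apol9a was at 0.102, 0.0549, 0.126 and 0.0485 CPM in WT_fenofibrate, from 10, 6, 11 and 6 counts. Apol9b was at 0.543, 0.448, 0.582 and 0.469 CPM, from 53, 49, 51 and 58 counts. Both overlapped the WT_control libraries, although each same-numbered pair was lower with fenofibrate, at 31.3% to 81.5% of control for Apol9a and 61.9% to 92.9% for Apol9b.

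The log2 fold change was -0.85 (SE 0.38) for Apol9a and -0.41 (SE 0.34) for Apol9b, and neither was called by edgeR's quasi-likelihood test (adjusted p = 0.099 and 0.38), where 16.9% of tested genes were called lower. With the replicate number as a block, Apol9a was called (-0.85, adjusted p = 0.028) and Apol9b was not (-0.40, adjusted p = 0.23). At 6 to 15 counts of Apol9a per WT library, counting error alone is a large part of the spread.

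**Figure D2:**
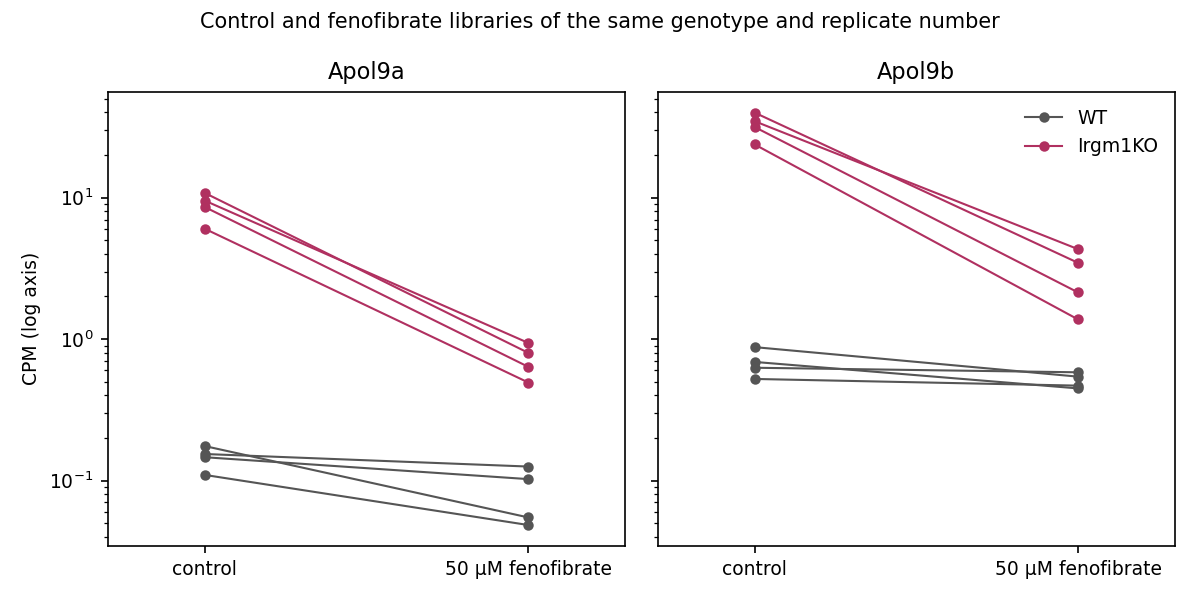
CPM of Apol9a (left) and Apol9b (right) on a log axis in control and 50 µM fenofibrate libraries of the second experiment; each line joins the 2 libraries of 1 genotype with the same replicate number. All 4 Irgm1KO lines fall steeply, to between 5.79% and 12.5% of control, and the WT lines lie lower and end at 31.3% to 92.9% of control.

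The fall with fenofibrate was larger in Irgm1KO than in WT cells for both genes. The genotype by fenofibrate interaction was -2.76 on the log2 scale (SE 0.47, adjusted p = 3.7e-04) for Apol9a and -3.11 (SE 0.43, adjusted p = 1.0e-04) for Apol9b in edgeR's quasi-likelihood test, where 14.7% of tested genes had an interaction called in that direction. The interaction shares the Irgm1KO_control libraries, to which the same limit applies.

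Under fenofibrate, Irgm1KO cells still held more of both transcripts than WT cells. The ratio of means was 8.65 for Apol9a (log2 fold change 3.15, SE 0.31, adjusted p = 3.9e-06) and 5.53 for Apol9b (2.47, SE 0.31, adjusted p = 4.7e-05, edgeR's quasi-likelihood test), and the groups did not overlap. In this comparison 18.1% of tested genes were called higher. These libraries pair by replicate number with control libraries that may have helped choose the genes, by the same contrast of genotypes. The p-values may therefore not be independent of the choice. The lowest fenofibrate-treated Irgm1KO library also lay above the highest WT_control library, at 0.493 against 0.175 CPM for Apol9a and 1.38 against 0.877 CPM for Apol9b. In the second experiment the group means of both genes ran from Irgm1KO_control through Irgm1KO_fenofibrate to the WT groups. WT_control and WT_fenofibrate were the only neighbours in that order whose libraries overlapped. The share of all genes without overlap is not given here, so this order is only a description.

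Per base of transcript, Apol9b was the more abundant gene in every library where the pair was above the floor. In CPM per kilobase, Apol9b was at 42.8 ± 8.86 and Apol9a at 14.7 ± 2.43 in Irgm1-KO (SD, n = 4), and at 0.769 ± 0.118 and 0.111 ± 0.0212 in WT. The ratio of Apol9b to Apol9a per kilobase lay between 2.59 and 3.24 in Irgm1-KO libraries and between 5.35 and 8.86 in WT libraries. In the second experiment it lay between 3.54 and 3.84 in Irgm1KO_control, between 2.72 and 4.47 in Irgm1KO_fenofibrate, between 3.83 and 5.84 in WT_control and between 4.51 and 9.40 in WT_fenofibrate. Reads that fit both genes could move this ratio, and their part was not tested.

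The share of Apol9b in the counts of the pair, which does not depend on library scaling, shows the same in percent. It was 87.6% ± 2.26 in WT and 74.8% ± 2.00 in Irgm1-KO (SD, n = 4), without overlap, a difference that belongs to the contrast that chose the genes and has no test. In the second experiment the untreated genotypes lay closer, at 82.1% ± 2.73 in WT_control and 78.9% ± 0.601 in Irgm1KO_control. Their libraries overlapped, and this difference has no test either. Single WT libraries, with 58 to 91 counts of the pair, had wide Wilson 95% intervals, such as 77.1% to 94.0% around 87.9% in replicate 1. Those of Irgm1-KO, with 3933 to 6826 counts, were narrow, such as 75.6% to 78.2% around 76.9%. These intervals cover counting error only.

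With fenofibrate the share stayed near its control value in Irgm1KO cells, at 78.5% ± 3.94 against 78.9% ± 0.601 (exact two-sided permutation test, adjusted p = 0.91 over 3 comparisons). This test did not use the pairing of control and fenofibrate libraries. The share was 86.5% ± 3.97 in WT_fenofibrate and 82.1% ± 2.73 in WT_control (adjusted p = 0.21). Irgm1KO_fenofibrate differed from WT_fenofibrate by -8.01 points, without overlap, which did not pass the threshold after adjustment (exact p = 0.029, the smallest that 4 against 4 libraries allow, adjusted p = 0.086). No share was computed for Irgm_IFNAR-KO, where libraries held 0 to 2 counts of the pair.

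**Figure D3:**
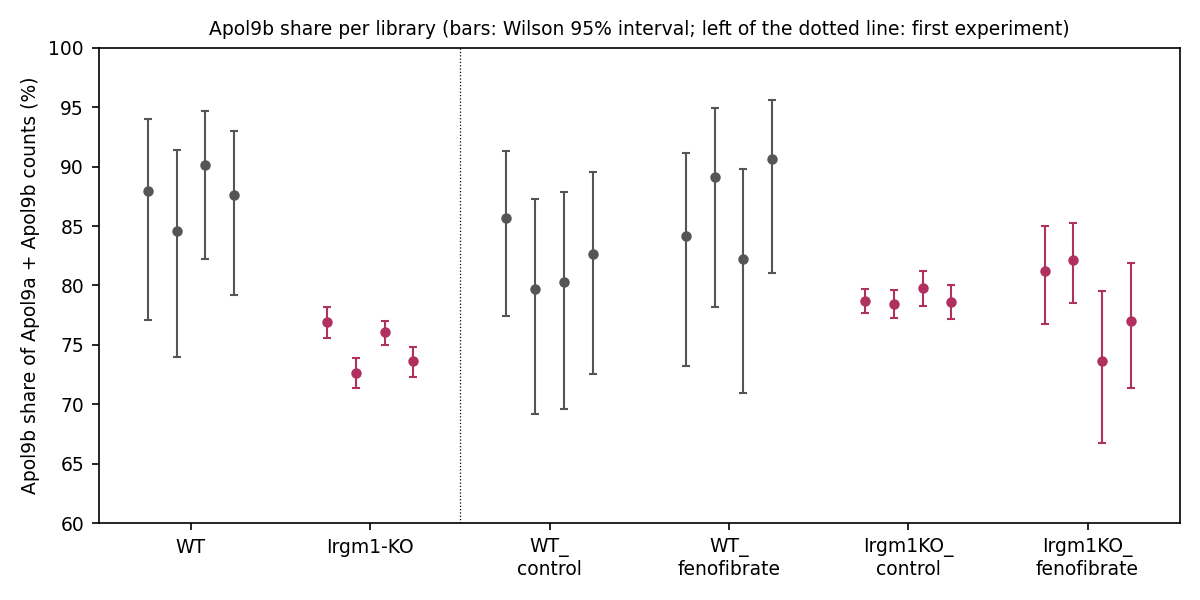
Share of Apol9b in the summed counts of Apol9a and Apol9b (percent, axis from 60 to 100) in each library by group, with Wilson 95% intervals as bars; WT libraries are grey and Irgm1-deficient ones red. The Irgm1-KO libraries lie between 72.7% and 76.9%, below the WT libraries at 84.6% to 90.1%. In the second experiment, the Irgm1KO_control libraries at 78.5% to 79.8% overlap the WT_control libraries at 79.7% to 85.7%.

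Of 12 other listed genes of the apolipoprotein L family, Apol7c and Apol10b were tested in both experiments and Apold1 in the second. Apol10b was at 1.04, 0.912, 1.02 and 0.988 CPM in WT, and Irgm1-KO libraries had 9.15, 9.41, 10.8 and 8.75 CPM. Its log2 fold change was 3.26 with an SE of 0.21 (adjusted p = 2.1e-07, edgeR's quasi-likelihood test).

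In Irgm_IFNAR-KO, Apol10b kept 4.44, 2.63, 2.44 and 2.19 CPM. This was lower than in Irgm1-KO (-1.70, adjusted p = 1.6e-05) but higher than in WT (1.56, SE 0.21, adjusted p = 3.1e-04), whereas Apol9a and Apol9b were called lower than in WT. In the second experiment Apol10b went from 0.865 ± 0.328 CPM in WT_control to 3.71 ± 0.448 in Irgm1KO_control (2.11, adjusted p = 3.8e-06). Fenofibrate lowered it to 1.45 ± 0.314 in Irgm1KO cells (-1.35, adjusted p = 3.0e-04), and in WT cells it was at 0.937 ± 0.320 CPM, not called (adjusted p = 0.75). The Apol10b and Apol9 counts thus fell together with fenofibrate in Irgm1KO cells, with a smaller fold for Apol10b.

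Apol7c moved differently from the pair. It was not called between Irgm1-KO and WT (3.65 ± 1.79 against 3.03 ± 1.09 CPM, adjusted p = 0.55, edgeR's quasi-likelihood test). In the first experiment it was highest where the Apol9 genes were lowest, at 30.5, 23.5, 15.4 and 20.3 CPM in Irgm_IFNAR-KO (log2 fold change against WT 2.90, SE 0.35, adjusted p = 1.4e-04). In the second it was lowest in WT_fenofibrate, where the means of both Apol9 genes were lowest too. Fenofibrate lowered it in WT cells, from 4.80 ± 2.49 to 0.569 ± 0.333 CPM (-3.10, adjusted p = 2.0e-04), and in Irgm1KO cells from 3.29 ± 1.35 to 1.42 ± 0.514 CPM (-1.21, adjusted p = 0.037), all by edgeR's quasi-likelihood test. The interaction for Apol7c was 1.90 (adjusted p = 0.038), opposite in sign to that of Apol9a and Apol9b. Its libraries spread widely within each group.

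Apold1, a more distant relative, was at 0.162 ± 0.0247 CPM in Irgm1KO_control and 0.292 ± 0.0630 in Irgm1KO_fenofibrate (0.84, adjusted p = 0.026), so it rose where the pair fell. Of the untested members, Apol6 had at most 12 counts in any library. Apol7b, Apol7d, Apol11a and Apol11b had 0 counts in all 16 libraries of the second experiment, and Apol7a, Apol7e, Apol8 and Apol10a had at most 3.

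**Figure D4:**
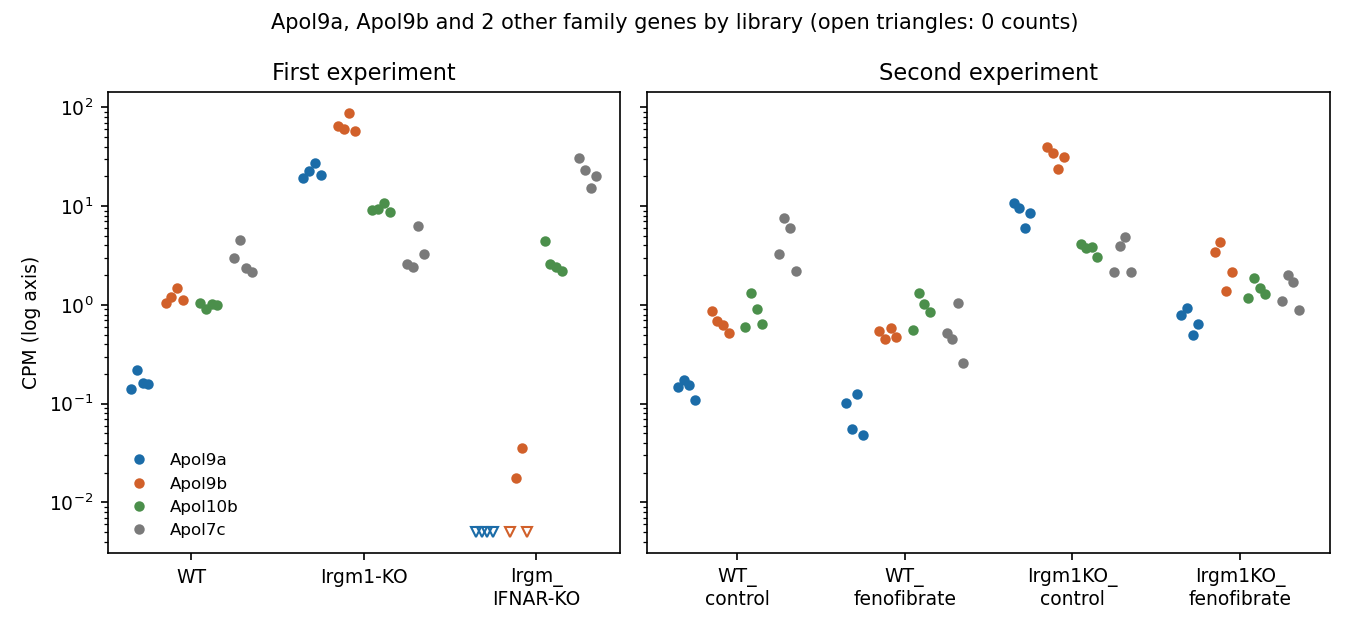
CPM of Apol9a, Apol9b, Apol10b and Apol7c in every library on a log axis, by group, for the first (left) and second (right) experiment; open triangles are libraries with 0 counts. Apol9a and Apol9b drop to the floor in Irgm_IFNAR-KO, where Apol10b stays at 2.19 to 4.44 CPM and Apol7c reaches 15.4 to 30.5 CPM.

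Both genes lie in a cluster of family members on chromosome 15, so their neighbours were also read. Of 29 genes that start within 200 kb of the start of either gene in GENCODE release M21, 7 were tested in each experiment. Besides Apol10b and Apol7c these were Myh9, a non-muscle myosin heavy chain gene, Txn2, the mitochondrial thioredoxin gene, Rbfox2, a splicing regulator gene, and the pseudogenes Gm6506 and Gm8221.

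Of these 7 neighbours, 1 (Apol10b) was called higher in Irgm1-KO than in WT, where 19.8% of all tested genes were, and 1 (Apol10b) lower in Irgm_IFNAR-KO than in Irgm1-KO, beside 21.3%. In Irgm1KO_control against WT_control, 2 were called higher, Apol10b and Txn2 (0.19, adjusted p = 0.0032), and Rbfox2 was called lower (-0.34, adjusted p = 0.032), beside 27.3% and 26.1% of all genes. Gm8221 rose together with Apol7c in Irgm_IFNAR-KO against WT (log2 fold change 2.33, adjusted p = 0.0092, edgeR's quasi-likelihood test). Myh9 differed by 0.18 (adjusted p = 0.57) and Txn2 by -0.23 (adjusted p = 0.18) between Irgm1-KO and WT, on the log2 scale on which Apol9a differed by 7.04. In Irgm1KO cells, Myh9 differed by -0.04 and Txn2 by -0.00 with fenofibrate, and neither was called (adjusted p = 0.54 and 0.95).

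The genes that carry the interferon signal were read from the ligand to the promoter-binding complex. Of 10 type I interferon ligands listed, only Ifnb1, which encodes interferon beta, had enough counts to be tested. It was at 0.122 ± 0.0637 CPM in WT, 2.11 ± 1.13 in Irgm1-KO and 0.309 ± 0.213 in Irgm_IFNAR-KO. Replicate 3 of Irgm1-KO stood at 3.79, and the other 3 libraries averaged 1.54. Replicate 4 of Irgm_IFNAR-KO stood at 0.625, and the other 3 libraries averaged 0.203. In the second experiment Ifnb1 went from 1.55 ± 0.510 CPM in Irgm1KO_control to 0.139 ± 0.0676 in Irgm1KO_fenofibrate (log2 fold change -3.49, SE 0.35, adjusted p = 7.4e-07, edgeR's quasi-likelihood test). In Irgm_IFNAR-KO, Ifnb1 stayed above the floor while Apol9a was at 0 counts, and its difference from WT was not called (1.35, adjusted p = 0.20).

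Of 7 receptor and signalling genes, 3 were called higher and 1 lower in Irgm1-KO against WT, beside 19.8% and 20.7% of all genes tested. The largest rise was that of Stat2 (log2 fold change 1.27, SE 0.15), part of the complex that binds the promoter element, and Irf9, its DNA-binding part, was not called (0.24, adjusted p = 0.057). In Irgm_IFNAR-KO against Irgm1-KO, 4 of the 7 were called lower, beside 21.3% of all genes, and Stat2 fell by 2.21. With fenofibrate all 7 were called lower in Irgm1KO cells (from -0.88 for Stat2 to -0.17 for Jak1), beside 22.2% of all genes and changes of -3.61 and -3.53 for the pair. In WT cells 5 of 7 were called lower, beside 16.9% of all genes, and the changes of Ifnar2 (-0.53) and Ifnar1 (-0.43) lay between those of Apol9a (-0.85) and Apol9b (-0.41).

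Beside a list of 60 other type I interferon-stimulated genes, of which 58 were tested and which holds Stat2, Irf9 and Bst2 among others, the pair stood at or near the end of the range in most comparisons. In Irgm1-KO against WT, 56 of the 58 were called higher, beside 19.8% of all genes tested, with a median log2 fold change of 1.53, beside -0.02 over all genes tested. The highest of them was Slfn4, a Schlafen family gene, at 5.54, below both Apol9b at 5.80 and Apol9a at 7.04. In Irgm1KO_control against WT_control, 57 of 58 were called higher (27.3% of all genes), with a median of 1.58, and the pair again came before all of them. Apol9a and Apol9b were chosen for their rise in Irgm1-KO. Their place in these comparisons of untreated genotypes follows, or may follow, from that choice.

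In Irgm_IFNAR-KO against Irgm1-KO, 57 of the 58 were called lower (median -3.26, all genes 0.02), beside 21.3% of all genes. Against WT, 53 of 58 were called lower (median -1.52, all genes 0.01), beside 8.22% of all genes. Fenofibrate lowered all 58 in Irgm1KO cells (median -1.43, all genes 0.01), beside 22.2% of all genes. Among the 60 genes with the pair included, Apol9a had the third and Apol9b the fifth largest fall, after Slfn4 and Isg20 and, for Apol9b, Ms4a4c. In WT cells, 40 of 58 were called lower and 2 higher (median -0.41, all genes 0.02), beside 16.9% and 18.1% of all genes, and Apol9a and Apol9b came 5th and 29th from the lowest. Under fenofibrate, 44 of 58 were called higher in Irgm1KO than in WT cells (median 0.50), beside 18.1% of all genes, and the pair headed the order at 3.15 and 2.47. The interaction was called negative for 53 of 58 (median -1.12), beside 14.7% of all genes, and Apol9b and Apol9a came 2nd and 4th from the lowest. Several of these comparisons share control libraries, or hold libraries paired with them, so their orders are not independent of each other or of the choice.

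**Figure D5:**
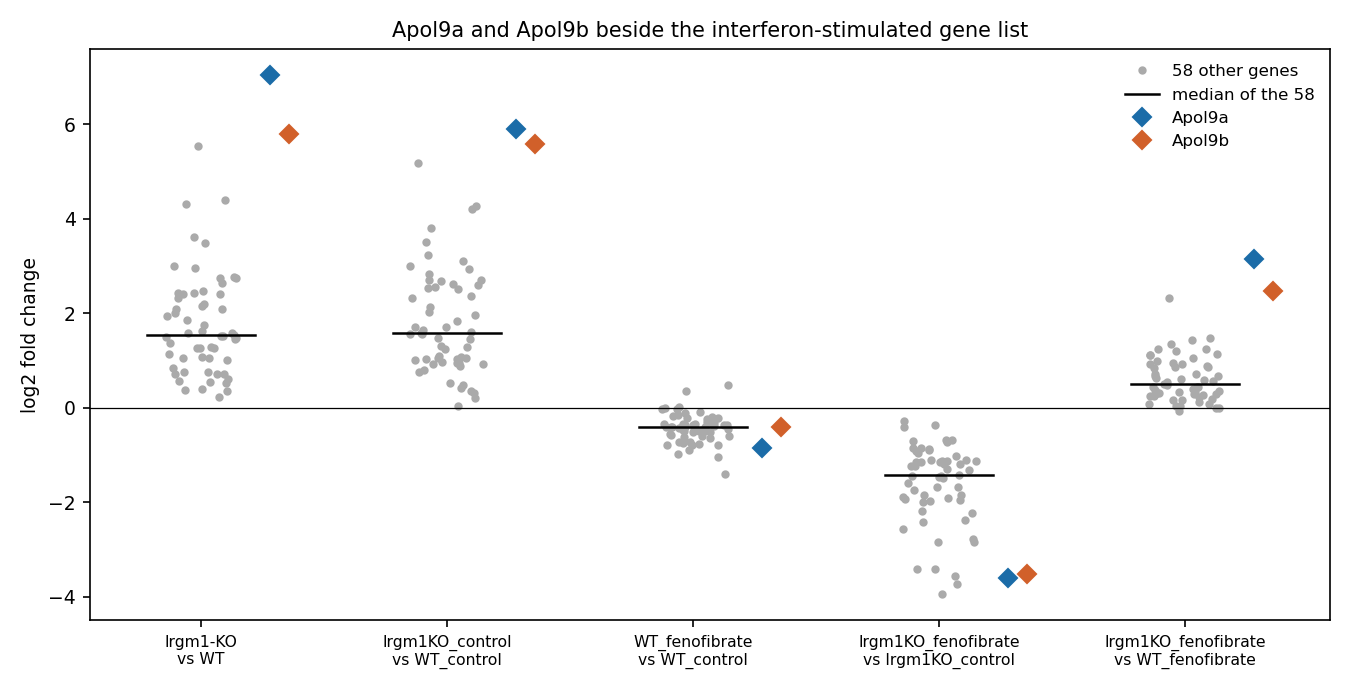
Log2 fold change of 58 interferon-stimulated genes (grey), their median (black line), Apol9a (blue) and Apol9b (orange) in 5 comparisons. The pair lies above all 58 genes in both comparisons of untreated genotypes, at 5.58 to 7.04, and near the lowest end with fenofibrate in Irgm1KO cells. Its place in the untreated comparisons follows, or may follow, from the choice of the genes by their rise in Irgm1-KO.

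Across all 5 contrasts with the WT or WT_control group, the genes nearest to the pair in profile were each other. Both were chosen by a contrast that is among these 5, and reads that fit both genes may tie their counts together. This likeness is therefore only a description. The root mean square difference of the log2 fold changes of Apol9a and Apol9b was 0.62, among 8969 genes that reached 5 CPM in some group of each experiment. Next to Apol9a came Oasl1 (1.83), Hsh2d (1.94), Ifi214 (2.18) and Isg20 (2.22), and the same 4 genes followed for Apol9b, led by Hsh2d (1.42) and Oasl1 (1.45). With a minimum of 1 CPM in place of 5, Slfn4 came 2nd for Apol9a (1.79) and 4th for Apol9b (1.60). Oasl1 is an oligoadenylate synthetase-like gene, Hsh2d encodes an SH2-domain adaptor of blood cells, Ifi214 is of the p200 family and Isg20 encodes an exonuclease.

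Hsh2d was at 1.13 ± 0.348 CPM in WT, 14.99 ± 1.99 in Irgm1-KO and 0.0134 ± 0.0171 in Irgm_IFNAR-KO, where Apol9b was also at 0.0134 ± 0.0172. The fitted fold of genes with almost no counts depends on the prior count of the fit, so the measure was also taken without the Irgm_IFNAR-KO contrast, a choice made after seeing the data. Apol9b was then nearest to Hspa1b (0.53) and Hspa1a (0.59), which were not low in Irgm_IFNAR-KO (log2 fold changes against WT of 4.28 and 3.69), and Apol9a followed at 0.69.

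Other cell types' markers and the summed level of macrophage markers are given here because some moved with the pair. The summed macrophage markers ran from 10102 to 15244 CPM in Irgm1-KO libraries, 21862 to 42080 in WT and 29316 to 40612 in Irgm_IFNAR-KO, so they were lowest where the pair was highest, with all 10 markers present in each group. In the second experiment they ran from 11170 to 13419 CPM in Irgm1KO_control, 15504 to 18923 in Irgm1KO_fenofibrate, 22804 to 31454 in WT_control and 14528 to 23167 in WT_fenofibrate. Their part in the levels of Apol9a and Apol9b was not tested.

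The listed markers of plasmacytoid dendritic cells, which make type I interferon (4 of 6 in the first table), summed to 1126 to 1493 CPM in Irgm1-KO, 437 to 535 in WT and 265 to 311 in Irgm_IFNAR-KO, but most of this was Bst2 (1178 ± 177 CPM in Irgm1-KO), itself interferon-stimulated. Siglech, which defines these cells, had at most 4 counts in any library of the second experiment, where the list summed to 676 to 791 CPM in Irgm1KO_control, 418 to 486 in Irgm1KO_fenofibrate and 303 to 396 in the WT groups. Conventional dendritic cell markers summed to 25.8 to 31.3 CPM in Irgm1-KO, 49.7 to 63.4 in WT and 61.4 to 71.4 in Irgm_IFNAR-KO. Their sum in the second experiment was higher in Irgm1KO cells, at 55.3 to 61.5 CPM in Irgm1KO_control and 56.4 to 73.0 in Irgm1KO_fenofibrate, against 29.1 to 48.2 in WT_control and 8.82 to 25.6 in WT_fenofibrate. Neutrophil markers summed to at most 40.9 CPM in any library, and those of B cells, T and NK cells and fibroblasts to at most 3.79. The part of these cells in the result was not tested.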

How the data were processed

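Messenger RNA of 28 mouse BMM libraries was sequenced, per the labels' protocols from a Kapa mRNA HyperPrep kit. Each experiment has 1 deposited table of raw whole-number counts, with Ensembl gene IDs. The submitters' processing notes name fastp, STAR, DESeq2 and the GRCm39 build. No source used here gives their versions, the counting tool, the annotation or the strand setting, and reads of overlapping, antisense or near-identical genes may be split or dropped. The first table holds only genes with at least 10 counts in some library. Symbols were found for 99.6% and 91.2% of IDs, and 143 of 144 list entries were matched.

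Libraries were grouped by title. The tests used edgeR 4.0.16 under R 4.3.3: filterByExpr (minimum count 10, minimum total 15; 13998 and 15429 genes kept, both Apol9 genes among them), TMM scaling, and 1 robust quasi-likelihood fit per experiment over all its groups (biological coefficient of variation 0.172 and 0.120). Adjustment was by Benjamini-Hochberg over all genes tested, with a threshold of 0.05. Alternatives were RLE scaling, no filter, only the groups compared, a replicate block, log2 Xist as a covariate, the dominant gene and mitochondrial genes left out, DESeq2 1.42.0, the pair summed and each replicate left out. The share of Apol9b was compared with exact permutation tests (scipy 1.17.1); 5 comparisons were planned and 3 could be made. Sequences were aligned with Biopython 1.88. The fit was also run on simulated data, which held no groups at 0 counts and no folds as large as those of the pair in Irgm1-KO. That run therefore does not cover such cases.

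Control and fenofibrate libraries that share a number within a genotype deviated together from their group means over 8223 genes (WT r = 0.43 to 0.82, Irgm1KO r = 0.26 to 0.64). These numbers were taken to pair the libraries, but the main fit and the permutation tests of the share did not use the pairing. In the first experiment (r = -0.88 to 0.88) the numbers do not pair the libraries. No 2 libraries of a group agreed within sampling noise.

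The genes named are Irgm1 and Ifnar1, the pair, the measured family members, interferon ligands and receptor and signalling genes, the 5 genes of most similar profile to each member, the neighbours in fold rank in Irgm1-KO against WT, genes within 200 kb, and single list members beside their counts. The members, the lists and this rule were chosen with earlier results of these data known.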

Additional observations from a re-analysis of the deposited data

Results flagged for a closer look

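The summed level of Apol9a and Apol9b in Irgm1-KO had a library far from the others: replicate 3 stood at 115.5 CPM, and the other 3 at 77.6 to 83.5. The gap to the nearest library was 0.845 of the group's whole range, above Dixon's critical value for 4 values, which chance exceeds in about 1 in 20 groups (24 groups were checked). The same library was the highest of its group for Apol10b (10.8 CPM), Apol7c (6.28 CPM) and Ifnb1 (3.79 CPM). Without it, the log2 fold change of Irgm1-KO against WT was 6.93 for Apol9a and 5.64 for Apol9b.

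The effect of fenofibrate differed between genotypes by the test of the difference itself, with interactions of -2.76 (Apol9a) and -3.11 (Apol9b) on the log2 scale. Each of the 4 same-numbered pairs of libraries in each genotype was lower with fenofibrate for both genes.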

How the results depend on the processing

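Over 8 contrasts, 258 of 259 alternative values for Apol9a and Apol9b kept the direction and the side of the threshold. They include the untreated contrasts by which the genes were or may have been chosen, and others that hold those libraries or libraries paired with them. A call kept there follows in part from the choice. In size, 1 of the 258 moved, the rise of Apol9a in Irgm1-KO. With the counts of the pair summed it was 6.02 in place of 7.04, and Apol9a is the smaller part of the sum. With the replicate block, Apol9a in WT with fenofibrate was called (-0.85, adjusted p = 0.028; 0.028 to 0.27 over its alternatives). The block changed no other call of the pair, also in the first experiment, where the numbers do not pair the libraries (Irgm_IFNAR-KO against WT, adjusted p = 0.0014 for Apol9a). With only Irgm_IFNAR-KO and WT in the fit, Apol9a fell under the count filter and gave no value.

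The difference in the Apol9b share between Irgm1KO_fenofibrate and Irgm1KO_control, -0.39 points, ran from -1.60 to 1.24 points with 1 library left out, and turned positive without Irgm1KO_fenofibrate replicate 3 (1.24) or 4 (0.099). Counts of genes called moved with log2 Xist as a covariate, an alternative added after seeing the data: 4241 higher in Irgm1-KO against WT (2767 without it), 4632 higher in Irgm_IFNAR-KO against Irgm1-KO (3014), and 2085 higher and 2119 lower in Irgm_IFNAR-KO against WT (552 and 1150). DESeq2 called 834 higher in the last. The cause was not tested. Without the Irgm_IFNAR-KO contrast, 3 of the 5 genes nearest to Apol9a and 3 of those nearest to Apol9b remained.

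At 6 to 15 counts per WT library, small changes of Apol9a in WT cells were poorly resolved. Its call there with fenofibrate depended on whether the pairing of libraries was used. Single shares of Apol9b in WT libraries carry wide counting error.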

Other observations

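Transcripts of the interferon alpha genes, which encode ligands of IFNAR and are near copies of each other with an uncertain split of reads, were seen in few reads. Ifna4 had 24 counts over the 4 Irgm1-KO libraries, 2 over Irgm_IFNAR-KO and 0 over WT. In the second experiment Ifna4, Ifna2, Ifna5 and Ifna1 had 25, 22, 12 and 5 counts over the Irgm1KO_control libraries, the group highest in Apol9a and Apol9b, and each had 0 counts over the other 3 groups. None of them had enough counts to be tested.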
